A study of Homo sapiens with 6 samples.

Results

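The TGF-beta genes described here are 10 rows of the deposited table of all genes, taken by gene symbol out of 18236 rows. They are the ligands TGFB1, TGFB2 and INHBA, the receptors TGFBR1 and TGFBR2, the signal transducers SMAD2, SMAD3 and SMAD4, and the inhibitors SMAD7 and SKIL. RNA-Seq had been carried out on 2 lines of HCT116, a colorectal cancer cell line, with 3 replicates of each. Mutant cells (CTNNB1 -/Δ45) keep only the CTNNB1 allele with the stabilizing Δ45 mutation of β-catenin, and wild-type cells (CTNNB1 WT/-) keep only the intact allele. Both lines were grown in McCoy-5A medium with 10% fetal bovine serum and antibiotics, and the labels name no TGF-beta treatment. The comparison asks how the RNA of these genes differed between cells with mutant and cells with wild-type β-catenin. Each genotype is represented by a single line, so the allele and any other difference between the lines cannot be told apart, and nothing in the labels ties the replicates to separate cultures, so p-values here rest on a spread between samples that could be technical.

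TGF-beta ligands are secreted in a latent form that is held in the extracellular matrix and has to be activated. Active ligand binds the type II receptor TGFBR2, which phosphorylates the type I receptor TGFBR1, and TGFBR1 in turn phosphorylates SMAD2 and SMAD3, which enter the nucleus with SMAD4 and change transcription. In the colonic epithelium the pathway restrains growth, and colorectal tumours often lose it. HCT116 cells are deficient in mismatch repair, and in tumours of this kind a run of A bases in the coding sequence of TGFBR2 often gains or loses a base. That run is shown because the TGFBR2 read count includes RNA of any allele, and the alleles of these cells were not measured here. It lies in exon 3 of the 7 exons of the canonical TGFBR2 transcript, at chr3:30691872-30691881 of GRCh37, plus strand, and is printed in capitals within the reference sequence of chr3:30691852-30691901.
TGFBR2 coding A run: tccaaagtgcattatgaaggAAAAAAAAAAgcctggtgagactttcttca

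The 250 bases before the RefSeq start are shown for TGFBR1, TGFBR2 and SMAD3, the 3 members that passed the test described below, since the receptors and SMAD3 moved in opposite directions. All 10 members had a promoter in the RefSeq table (GRCh38.p14). Capitals mark matches on either strand to CAGAC, the SMAD box, and to GGGCGG, the SP1 box. TGFBR1 (chr9:99104863-99105112) held 1 SMAD box, SMAD3 (chr15:67065352-67065601) held 4 SP1 boxes, and TGFBR2 (chr3:30606106-30606355) held neither, all on the plus strand of the genome.
TGFBR1 promoter: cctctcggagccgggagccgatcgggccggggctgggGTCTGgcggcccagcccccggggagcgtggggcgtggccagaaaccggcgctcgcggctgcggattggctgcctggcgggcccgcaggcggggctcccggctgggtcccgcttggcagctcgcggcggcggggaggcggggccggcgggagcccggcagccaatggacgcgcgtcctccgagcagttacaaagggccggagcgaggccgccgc
TGFBR2 promoter: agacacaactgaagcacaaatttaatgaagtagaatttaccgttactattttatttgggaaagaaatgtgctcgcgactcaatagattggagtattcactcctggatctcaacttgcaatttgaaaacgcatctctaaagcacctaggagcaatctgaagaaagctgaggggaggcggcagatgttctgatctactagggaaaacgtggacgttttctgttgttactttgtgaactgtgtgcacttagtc
SMAD3 promoter: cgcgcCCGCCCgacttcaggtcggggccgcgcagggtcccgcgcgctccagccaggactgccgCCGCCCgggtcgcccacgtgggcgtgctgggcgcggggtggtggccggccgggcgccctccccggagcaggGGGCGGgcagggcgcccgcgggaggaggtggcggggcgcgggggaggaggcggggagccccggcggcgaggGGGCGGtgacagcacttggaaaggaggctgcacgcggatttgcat
The TGFBR1 and SMAD3 windows were rich in G and C, with a GC content of 79.6% and 80.8%, whereas the TGFBR2 window had 40.8%, against a median of 58% over 27305 promoters of the same length. GC content and boxes hold for the RefSeq start used, and other annotated starts of these genes were not examined. CAGAC was present in 37.8% of those promoters and GGGCGG in 42.3%. Members that did not pass held these boxes too. GGGCGG occurred 6 times in TGFB1, 3 times each in SMAD2 and SKIL and 2 times in SMAD4. CAGAC occurred 2 times each in TGFB2 and SMAD7 and 1 time in SKIL. The GC content of these other members ran from 42.8% in INHBA to 78.4% in SMAD2 and SKIL. The TCF/LEF motif CTTTGAT, through which β-catenin acts with its DNA-binding partners, was in none of the 10 member windows and in 2.28% of all promoters, and the AP-1 motif TGACTCA was likewise in none of the 10, against 4.16%. The SMAD palindrome GTCTAGAC, which holds AGAC on each strand, was in 0.176% of all promoters and in no member.

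The samples held 21.8 to 57.9 M reads in genes. A normalized count is the number of reads of a gene over the size factor of the sample they came from. The 14539 genes that averaged 10 or more normalized counts were tested with limma on log2(normalized count + 1). Fold changes are given as mutant over wild-type on that scale, which understates the change of low genes, and "passed" means a Benjamini-Hochberg adjusted p under 0.05 over all genes tested. The median of all genes was 0.24 on the log2 scale with the deposited scaling and 0.01 in edgeR, so that a change is also given relative to that median where it matters. Both samples numbered 1 stood apart from their line. The SD of the log2 difference across genes was 0.34 between wild-type 2 and wild-type 3 and 0.27 between mutant 2 and mutant 3, but 0.67 between wild-type 1 and wild-type 2 and 0.84 between mutant 1 and mutant 2. Wild-type 1 and mutant 1 differed by 0.51, which is less than either differed from the other samples of its own line, so results are given with and without this pair. The keratins KRT8, KRT18 and KRT19 were abundant in every sample, whereas CDX1, an intestinal transcription factor, was at 0 to 2.12 normalized counts. Its paralog CDX2 was at 202 to 500 in wild-type and at 473 to 672 in mutant cells (adjusted p = 0.0681, limma). The whole list of colorectal epithelial markers summed to 57989 to 60933 in wild-type and 45296 to 50371 in mutant cells, mostly from these 3 keratins. Its genes differed in direction. Of the 8 tested, CDH1 and EPCAM passed as lower and KRT20 as higher, while 5 were not called (limma). CDH1 was at 1160 to 1647 normalized counts in wild-type and 472 to 740 in mutant cells. EPCAM was at 7186 to 9690 and 3266 to 5523, and KRT20, a low gene, at 3.33 to 13.5 and 24.0 to 37.1. In edgeR 0 of the 8 were called higher and 3 lower, against 12.3% and 11.2% of all genes. The markers of blood cells summed to 3385 to 5307 normalized counts in wild-type and 739 to 1313 in mutant cells, nearly all of it CD68, while PTPRC was at 0 to 4.43. Of the other marker lists, fibroblast genes summed to 3583 to 4709 and 1980 to 4479, mostly COL1A1, with FAP at 0 to 1.23. Endothelial genes summed to 119.9 to 152.9 and 69.0 to 89.8, mostly VWF (117 to 139 and 46.5 to 72.1), with PECAM1 at 0 to 4.25. CD68 and ITGAM of 3 tested blood markers, COL3A1 of 3 fibroblast markers and VWF of 2 endothelial markers passed as lower, against 10.0% of all genes (limma). In these lists 0 genes passed as higher. COL3A1 was at 106 to 127 in wild-type and 20.2 to 70.2 in mutant cells, and ITGAM at 33.7 to 38.1 and 13.8 to 17.7. The part of these marker differences in the results was not tested. In RNA from whole cultures, fewer cells of a type and less RNA per cell cannot be told apart. CTNNB1 itself differed by less than the test could call (log2 fold change 0.35, adjusted p = 0.150, limma), which is no check of the labels, since each line keeps one allele.

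Mutant cells had more RNA of the receptor TGFBR1 and less of SMAD3, and TGFBR2 was also higher, although by less than edgeR and DESeq2 could call. Of the 10 members, 8 had enough reads to be tested and 3 passed, TGFBR1 and TGFBR2 as higher and SMAD3 as lower, against 27.3% of all genes tested (17.3% higher and 10.0% lower). The values of the lines did not overlap for the same 3 members, against 45.7% of all genes. The median log2 fold change of the 8 members was 0.43, or 0.18 relative to all genes. In edgeR 2 of the 8 passed, TGFBR1 as higher and SMAD3 as lower, against 23.4% of all genes (12.3% higher and 11.2% lower), and in DESeq2 the same 2 passed against 42.3%. These shares of 8 genes are near the background, so nothing particular to the members as a group is read from them.

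**Figure D1:**
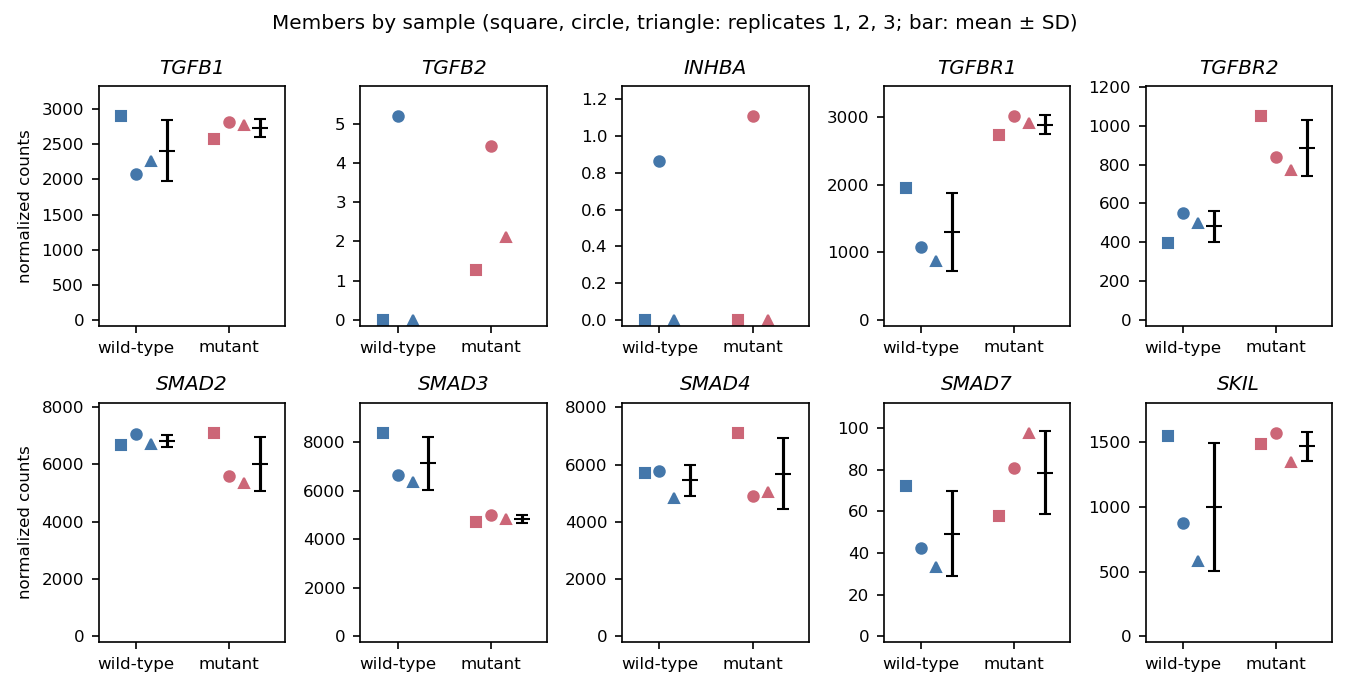
Normalized counts (linear axes from 0) of the 10 members in each sample, with wild-type cells in blue and mutant cells in red. Squares, circles and triangles are replicates 1, 2 and 3, and bars give the mean ± SD of the 8 tested members. TGFBR1 (869 to 1953 against 2738 to 3006), TGFBR2 (394 to 550 against 775 to 1048) and SMAD3 (6353 to 8374 against 4690 to 5001) do not overlap between the lines, whereas the other members do.

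Among the ligands only TGFB1 was expressed at an appreciable level. TGFB1, the main TGF-beta ligand of most tissues, was at 2897, 2073 and 2258 normalized counts in wild-type 1 to 3 and at 2583, 2824 and 2778 in mutant 1 to 3. The lines overlapped because wild-type 1 had the highest value of all. The log2 fold change was 0.19 (95% interval -0.21 to 0.59, adjusted p = 0.379, limma) and turned to -0.04 in edgeR (adjusted p = 0.821), so that no direction can be given. Without replicate 1 of both lines, leaving 2 samples each, it was 0.37 and passed (adjusted p = 0.00172, limma), in a fit in which 82.3% of all genes passed and the median of all genes was 0.39, so that TGFB1 lay no higher than genes in general. Exons of TGFB1 overlap those of HNRNPUL1, an RNA-binding protein gene on the opposite strand that was abundant here (10690 to 13707 normalized counts, log2 fold change -0.21, adjusted p = 0.217, limma). Whether the counting used strand is not given in the sources used here, so reads in the shared stretch cannot be assigned to either gene.

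TGFB2, a ligand best known from development and mesenchymal cells, had 0, 6 and 0 reads in wild-type and 2, 4 and 2 reads in mutant cells. INHBA, the subunit that forms activin A, had 0, 1 and 0 reads in wild-type and 0, 1 and 0 reads in mutant cells. Neither was tested. A count of 0 allows up to 3 reads, which corresponds to 1.90 to 5.00 normalized counts depending on the sample, and at this depth no difference in either gene was detectable.

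Both receptors were higher in mutant cells in limma. TGFBR1, the type I receptor kinase, was at 1953, 1076 and 869 normalized counts in wild-type 1 to 3 and at 2738, 3006 and 2916 in mutant 1 to 3. Every mutant sample exceeded every wild-type sample, and the mutant samples lay close together (2887 ± 136, SD, n = 3) while the wild-type samples spread widely (1299 ± 575, SD, n = 3) because of wild-type 1. TGFBR1 was 2.36-fold higher in mutant cells (log2 fold change 1.24 ± 0.29, SE, adjusted p = 0.0410, limma), and 0.99 above the median of all genes on the log2 scale. In edgeR its log2 fold change was 0.95 (adjusted p = 0.0413). An exact two-sided permutation test of the same difference gave p = 0.1, the smallest that 3 against 3 samples allow. Without replicate 1 of both lines the log2 fold change rose to 1.61 (adjusted p = 8.1e-06, limma).

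TGFBR2, the type II receptor that binds the ligand, was at 394, 550 and 501 normalized counts in wild-type 1 to 3 and at 1048, 838 and 775 in mutant 1 to 3. The lines did not overlap, and here the samples numbered 1 were the lowest and the highest of all 6, so they lay farther apart than the others. The log2 fold change was 0.88 ± 0.22 (SE, adjusted p = 0.0413, limma), or 0.64 relative to all genes. The call was lost in edgeR (log2 fold change 0.64, adjusted p = 0.0948) and in DESeq2 (adjusted p = 0.0733). Without replicate 1 of both lines the log2 fold change was 0.62 (adjusted p = 0.000549, limma). The ratio of TGFBR1 to TGFBR2 counts, which no scaling changes, was 4.96, 1.95 and 1.73 in wild-type and 2.61, 3.59 and 3.76 in mutant cells. Wild-type 1 had the highest ratio of all, whereas in the samples numbered 2 and 3 it was higher in the mutant.

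The SMADs that carry the signal differed among themselves. SMAD3, which binds DNA directly, was at 8374, 6632 and 6353 normalized counts in wild-type 1 to 3 and at 4690, 5001 and 4828 in mutant 1 to 3. All mutant samples were below all wild-type samples, and wild-type 1 was again the farthest from its line. SMAD3 was 1.46-fold lower in mutant cells (log2 fold change -0.55 ± 0.15, SE, adjusted p = 0.0435, limma), and -0.79 relative to all genes. The call was kept in edgeR (log2 fold change -0.78, adjusted p = 0.0315) and in DESeq2 (adjusted p = 2.8e-06). With the samples numbered 1 left out, the log2 fold change was -0.40 (adjusted p = 0.000511, limma). Exons of SMAD3 overlap those of a long non-coding RNA gene on the opposite strand (ENSG00000259347) that has no row of its own. Since the use of strand in counting is not given, the SMAD3 count may include reads of that gene.

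SMAD2, the other receptor-activated SMAD, was at 6665, 7056 and 6713 normalized counts in wild-type and at 7093, 5606 and 5342 in mutant cells. Mutant 1 had the highest value of all, and the other mutant samples were below every wild-type sample. The log2 fold change of SMAD2 was -0.19 (95% interval -0.55 to 0.17, adjusted p = 0.331, limma). It was -0.33 without replicate 1 of both lines and then passed (adjusted p = 0.00167, limma). The ratio of SMAD3 to SMAD2 counts was 1.26, 0.940 and 0.946 in wild-type and 0.661, 0.892 and 0.904 in mutant cells. This ratio was lower in all mutant samples, but between the samples numbered 2 and 3 the gap was small.

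SMAD4, the common partner of both, was at 5703, 5790 and 4838 normalized counts in wild-type and at 7103, 4893 and 5037 in mutant cells. The lines overlapped, although mutant 1 was above every wild-type sample. Its log2 fold change was 0.04 (95% interval -0.39 to 0.48, adjusted p = 0.859, limma) and turned to -0.16 in edgeR and to -0.09 without replicate 1 of both lines. SMAD4 shares exons with another annotated gene model on the same strand (ENSG00000267699), so its count may include or lack reads of that model. TGFBR1 counts divided by SMAD3 counts were 0.233, 0.162 and 0.137 in wild-type and 0.584, 0.601 and 0.604 in mutant cells. The mutant samples, mutant 1 included, were nearly equal in this ratio and lay above the wild-type samples. That separation was fixed in advance, since TGFBR1 was higher and SMAD3 lower in every mutant sample, so it adds no further support.

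**Figure D2:**
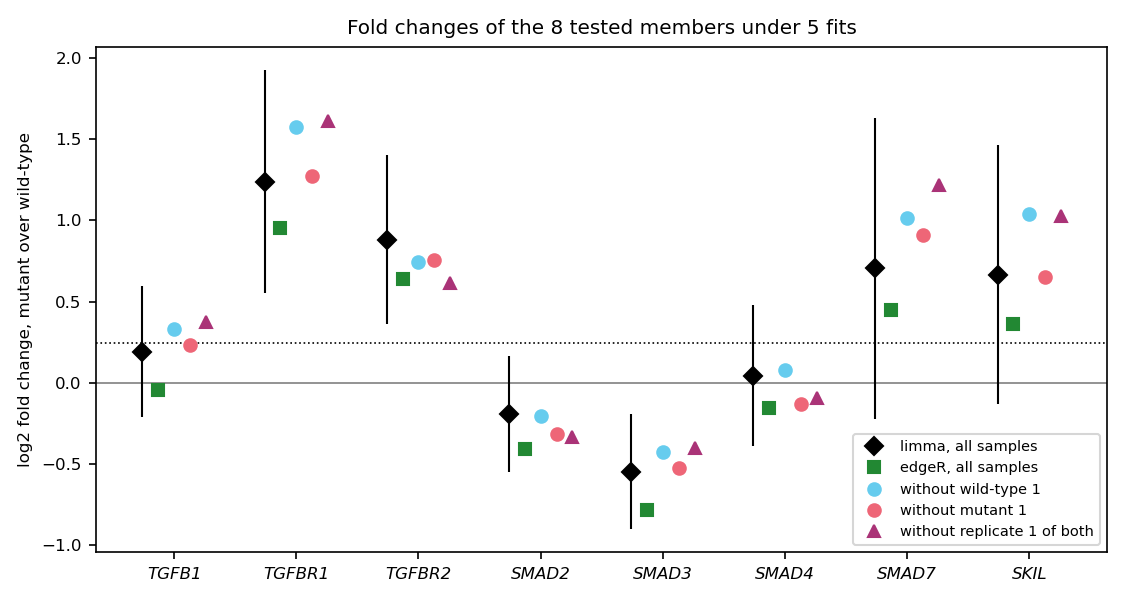
Log2 fold change (mutant over wild-type) of the 8 tested members in limma with all samples (diamonds, bars are 95% intervals), in edgeR with all samples (squares), in limma without wild-type 1 or without mutant 1 (circles), and without replicate 1 of both lines (triangles). The dotted line is the median of all genes in limma, 0.24. TGFBR1 and TGFBR2 stay above 0 and SMAD2 and SMAD3 below 0 in all 5 fits, while TGFB1 and SMAD4 change sign.

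Both inhibitors had higher means in mutant cells without passing the test. SMAD7, which blocks the type I receptor and is itself induced by the pathway, was at 72.4, 42.3 and 33.3 normalized counts in wild-type and at 57.5, 80.8 and 97.6 in mutant cells. The lines overlapped only through the samples numbered 1. The log2 fold change of SMAD7 was 0.70 (95% interval -0.22 to 1.63, adjusted p = 0.182, limma), on 20 to 92 reads per sample, and it was 1.22 without replicate 1 of both lines (adjusted p = 0.00150, limma). SKIL, or SnoN, a repressor that binds SMADs in the nucleus, was at 1545, 873 and 581 normalized counts in wild-type and at 1485, 1569 and 1344 in mutant cells. Wild-type 1 lay within the mutant range and the other wild-type samples below it. Its log2 fold change was 0.66 (95% interval -0.13 to 1.46, adjusted p = 0.151, limma) and 1.03 without replicate 1 of both lines (adjusted p = 0.00161, limma).

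Levels between genes can be compared per kb of the canonical transcript. In wild-type cells SMAD3 had a mean of 1101 normalized counts per kb, followed by TGFB1 with 867, SMAD4 with 621, TGFBR1 with 200, SMAD2 with 197, SKIL with 140, TGFBR2 with 106 and SMAD7 with 14.8. In mutant cells the means per kb were 981 for TGFB1, 749 for SMAD3, 647 for SMAD4, 445 for TGFBR1, 205 for SKIL, 196 for TGFBR2, 174 for SMAD2 and 23.5 for SMAD7. SMAD3 and TGFB1 overlapped in wild-type cells (983 to 1295 against 746 to 1042 per kb), as did TGFBR1, SMAD2 and SKIL, and SKIL and TGFBR2. In mutant cells TGFB1 (929 to 1016 per kb) stood above SMAD3 (726 to 774), whereas SMAD3 and SMAD4 overlapped, and so did SKIL, TGFBR2 and SMAD2. TGFBR1 stood apart from SMAD2 in mutant cells (422 to 463 against 154 to 205 per kb) but not in wild-type cells (134 to 301 against 193 to 204 per kb). The length assigned to SMAD2 is 34626 bases, mostly untranslated, so its level per kb rests on how much of that transcript these cells make. With all annotated exons as the length, TGFB1 came before SMAD3 in wild-type cells (738 against 711 per kb). SMAD4 then had only 278 per kb in wild-type and 290 in mutant cells. In mutant cells that is below TGFBR1 (361 per kb) and well below SMAD3 (483 per kb), so the place of SMAD4 depends on the length used.

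On chromosome 18, SMAD2, SMAD7 and SMAD4 lie within a few megabases of each other (GRCh37, GENCODE 44, chr18:45335328-45457517, chr18:46446223-46477335 and chr18:48554898-48611415), and none of the 3 passed the test. TGFBR1 lies at chr9:101866320-101916474 and 12 tested genes lie within 1 Mb of it, with a median log2 fold change of 0.38, of which 3 were called higher and 0 lower. Around TGFBR2 (chr3:30648093-30735634) there were 3 tested genes with a median of 0.68, and 1 of them was called higher. Around SMAD3 (chr15:67356101-67487511) there were 18 with a median of 0.10, of which 2 were called higher and 2 lower. Over all genes the median was 0.24, with 17.3% called higher and 10.0% lower, so nothing regional is read from these few neighbours.

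As a description of pattern, the genes whose log2 values followed TGFBR1 most closely over the 6 samples, among the 11788 that averaged 100 or more normalized counts, were EBF2, CCDC117 and PRKACB, each with a Pearson's r of 0.999. For TGFBR2 they were FAM98A, SEPT9 and EIF4E (r of 0.991, 0.987 and 0.983), and for SMAD3 they included GRAMD1B and ELFN2 (r of 0.997 and 0.996). The 6 points share the difference between the lines and the departure of the samples numbered 1, and the highest of many correlations is high by selection.

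Other genes of the pathway were taken from lists by role. Of 97 genes listed, 91 were in the table and 80 were tested, of which 16 were called higher and 10 lower, or 32.5% against 27.3% of all genes, with a median log2 fold change of 0.13. The share is near the background. Outside the 10 members, 8 ligands of the TGF-beta family were tested, and 1 rose and 1 fell. GDF15, a secreted stress-induced member of the family that does not signal through these receptors, was at 1660, 2045 and 2413 normalized counts in wild-type and at 230.2, 420.4 and 440.4 in mutant cells, 5.76-fold lower (log2 fold change -2.53, adjusted p = 0.0138, limma). INHBC, an inhibin subunit, was at 7.36, 0.864 and 1.67 in wild-type and at 8.22, 42.0 and 42.5 in mutant cells (log2 fold change 2.90, adjusted p = 0.0436, limma). The mutant excess of INHBC came from mutant 2 and mutant 3, since mutant 1 was close to wild-type 1. Of 8 other receptors only ACVR2A, an activin type II receptor, passed, with 744 to 1286 normalized counts in wild-type and 1665 to 2347 in mutant cells (log2 fold change 1.07, adjusted p = 0.0413, limma).

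**Figure D3:**
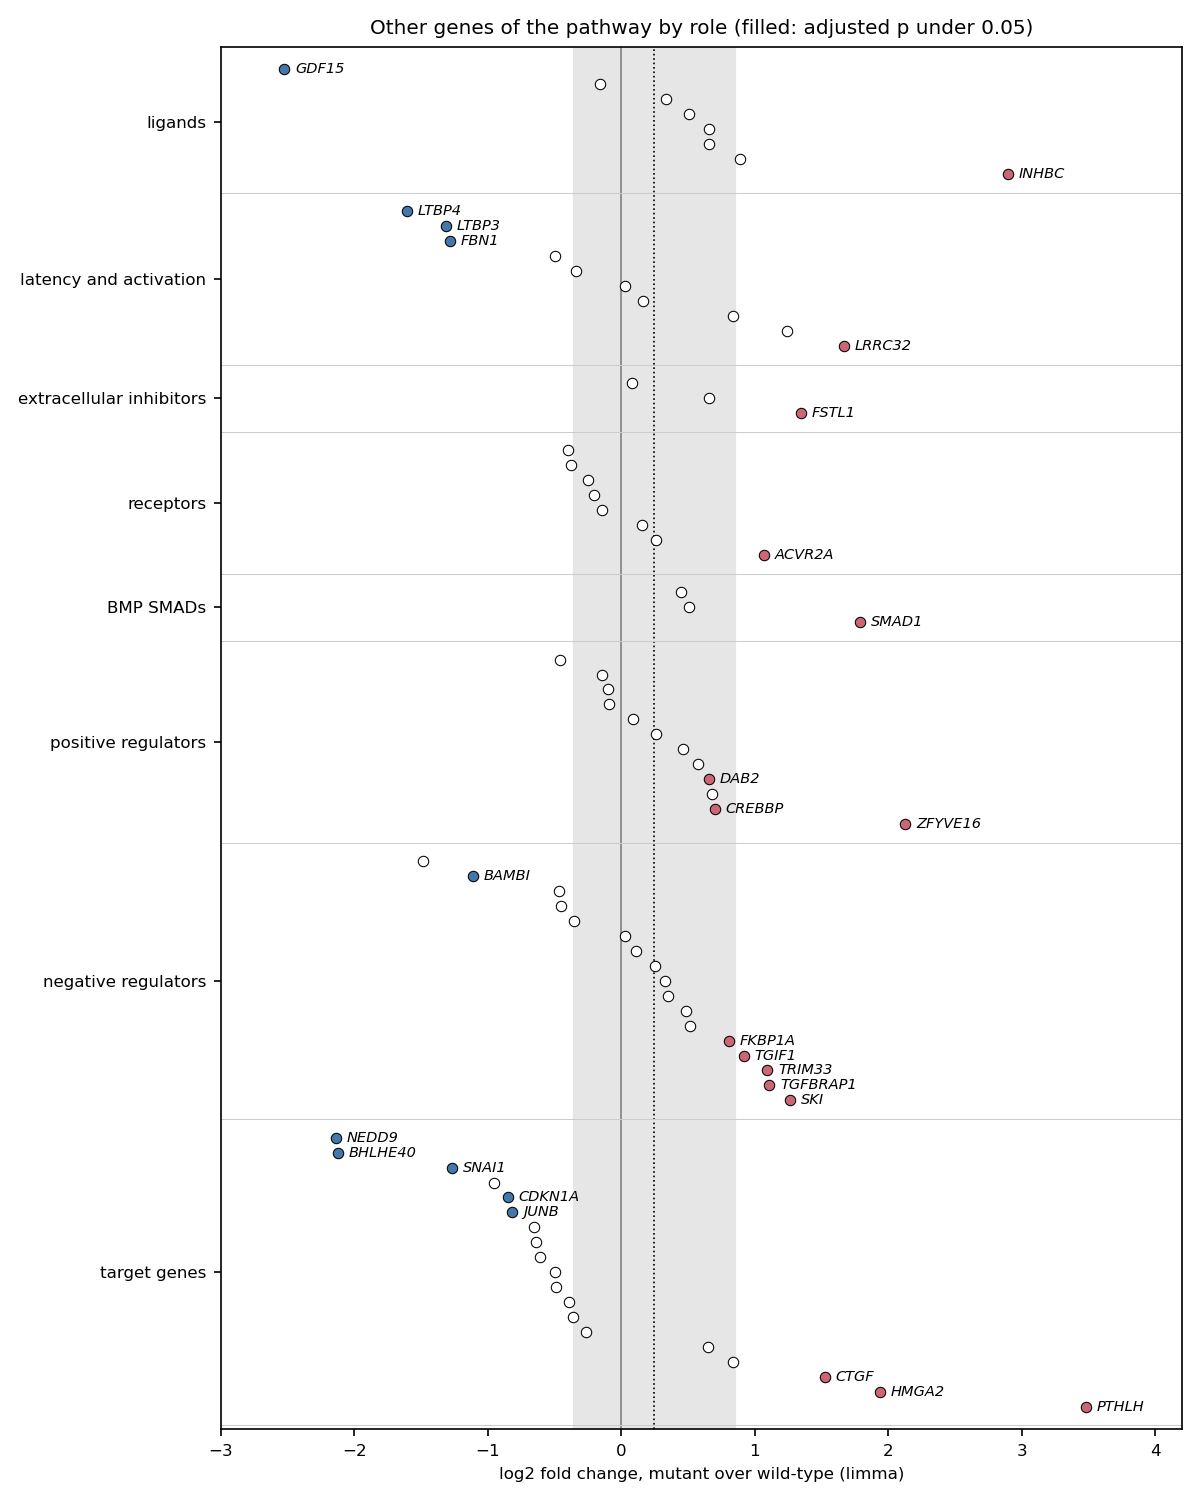
Log2 fold change (mutant over wild-type, limma) of the 80 other tested pathway genes by role. Filled points passed the test, red for higher and blue for lower, and each is named; the grey band is the interquartile range of all tested genes and the dotted line their median of 0.24. Genes listed as negative regulators have 5 higher and 1 lower call of 17 genes, and target genes have 3 higher and 5 lower calls of 19.

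Of 10 tested genes listed for the latency and activation of TGF-beta, LTBP3, LTBP4 and FBN1 fell and LRRC32 rose. Over all genes 10.0% were lower and 17.3% higher. LTBP4, which tethers latent TGF-beta to the matrix, was at 14246, 19388 and 20151 normalized counts in wild-type and at 9373, 4758 and 4424 in mutant cells (3.04-fold lower, log2 fold change -1.61, adjusted p = 0.0371, limma). For LTBP4 wild-type 1 and mutant 1 were the samples closest to the other line, and they still did not overlap. LTBP3, a second protein of this kind, was 2.48-fold lower (log2 fold change -1.31, adjusted p = 0.0260, limma), and FBN1, the microfibril protein to which they bind, was 2.43-fold lower (log2 fold change -1.28, adjusted p = 0.0413, limma). LRRC32, or GARP, which holds latent TGF-beta on the cell surface, was at 19.9 to 51.6 normalized counts in wild-type, highest in wild-type 1, and at 80.7 to 96.3 in mutant cells (log2 fold change 1.67, adjusted p = 0.0419, limma). The paralog LTBP1, chosen after its values were seen, missed the threshold with 465 to 1312 normalized counts in wild-type and 1489 to 1651 in mutant cells (log2 fold change 1.24, adjusted p = 0.0512, limma). The ratio of LTBP4 to LTBP1 counts was 10.9, 39.2 and 43.4 in wild-type and 6.30, 2.92 and 2.68 in mutant cells. The samples numbered 1 were nearest to each other in this ratio. Its lack of overlap follows from the values of the 2 genes, neither of which overlapped between the lines. Of 3 tested extracellular inhibitors, FSTL1, a secreted protein of the follistatin family, was the one that passed, with 728 to 1464 normalized counts in wild-type and 2207 to 2770 in mutant cells (log2 fold change 1.35, adjusted p = 0.0404, limma).

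Among 17 tested genes listed as negative regulators 5 rose and 1 fell (35.3%, near the 27.3% of all genes). SKI, the paralog of SKIL and likewise a nuclear repressor of SMADs, was at 1653, 1006 and 929 normalized counts in wild-type and at 1850, 3554 and 3257 in mutant cells (log2 fold change 1.26, adjusted p = 0.0415, limma). TGIF1, a homeodomain repressor that joins SMAD complexes, rose by 0.92 on the log2 scale (adjusted p = 0.0412, limma), with 2612 to 4389 normalized counts in wild-type and 5737 to 6047 in mutant cells. TGFBRAP1, a protein that associates with the TGF-beta receptors, rose by 1.11 (adjusted p = 0.0429, limma). Its place among the negative regulators rests on the list used, and its role was not tested here. TRIM33 and FKBP1A, named here after their values were seen, rose as well, but narrowly missed the threshold in edgeR (adjusted p = 0.0531 and 0.05002). BAMBI, a pseudoreceptor that lacks the kinase domain and a known target of β-catenin, was at 277, 361 and 381 normalized counts in wild-type and at 201, 129 and 144 in mutant cells (log2 fold change -1.11, adjusted p = 0.0413, limma). In edgeR 3 genes of this list were called higher and 1 lower, against 12.3% and 11.2% of all genes.

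Of 12 tested positive regulators 3 rose and 0 fell (25% against 27.3% of all genes), but the split depended on the test. It was 1 higher and 1 lower in edgeR (12.3% and 11.2% of all genes). In DESeq2 it was 2 higher and 1 lower, where 42.3% of all genes passed (3154 higher and 2999 lower). The lower call was USP15, a deubiquitinase named after its values were seen (adjusted p = 0.0661 in limma, 0.0475 in edgeR and 0.0137 in DESeq2). ZFYVE16, or endofin, an endosomal protein that binds SMADs, was at 1106, 437 and 293 normalized counts in wild-type and at 1291, 3222 and 2862 in mutant cells (log2 fold change 2.13, adjusted p = 0.0414, limma). CREBBP, a histone acetyltransferase that SMADs recruit, and DAB2, an adaptor that links receptors to SMADs, had log2 fold changes of 0.70 and 0.65 (adjusted p = 0.0485 for each, limma), and both calls were lost in edgeR (adjusted p = 0.0621 and 0.116). Of the 3 SMADs of the BMP branch, SMAD1 rose, from 599, 231 and 226 normalized counts in wild-type to 777, 1299 and 1288 in mutant cells (log2 fold change 1.79, adjusted p = 0.0410, limma).

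The 19 tested genes commonly induced by TGF-beta had 3 higher and 5 lower calls, where 17.3% of all genes were higher and 10.0% lower. Their median log2 fold change was -0.49, against 0.24 over all genes, and they are targets of other pathways as well. PTHLH, the parathyroid hormone-related peptide, was at 7.36, 5.18 and 6.66 normalized counts in wild-type and at 145, 79.7 and 45.6 in mutant cells (log2 fold change 3.48, adjusted p = 0.0192, limma). CTGF, a matrix-associated growth factor that YAP also induces, was at 334, 229 and 258 in wild-type and at 1274, 581 and 639 in mutant cells (log2 fold change 1.52, adjusted p = 0.0404, limma). For both genes mutant 1 had the highest value and no sample overlapped. BHLHE40, a transcriptional repressor that also responds to hypoxia, was at 8346, 17845 and 18720 in wild-type and at 4029, 2991 and 2794 in mutant cells, 4.36-fold lower (log2 fold change -2.12, adjusted p = 0.0254, limma). JUNB, an AP-1 subunit, fell by 0.82 on the log2 scale, from 3523 to 5241 normalized counts in wild-type to 2337 to 2576 in mutant cells (adjusted p = 0.0404, limma). In edgeR the list had 3 higher and 6 lower calls (12.3% and 11.2% over all genes). In DESeq2 it had 3 and 10, where 42.3% of all genes passed (3154 higher and 2999 lower).

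**Figure D4:**
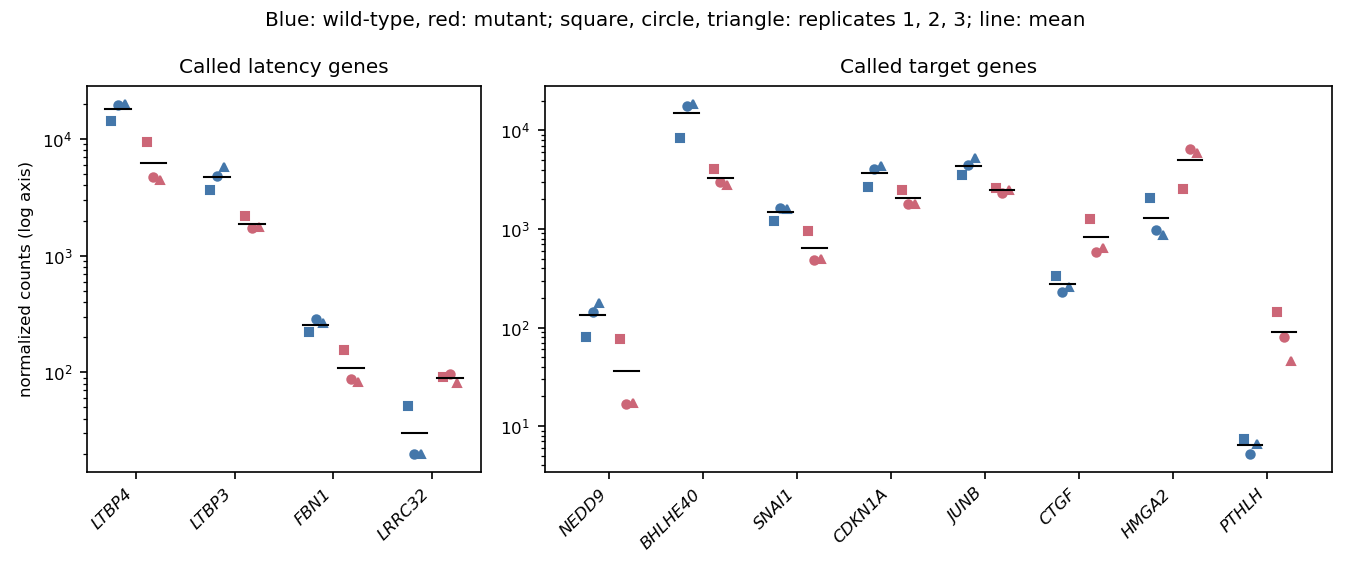
Normalized counts (log axis) of the latency genes (left) and the target genes (right) that passed the test, by sample; NEDD9, SNAI1, CDKN1A and HMGA2 fall outside the naming rule and are drawn because they passed in limma (NEDD9 did not in edgeR, adjusted p = 0.0647). Wild-type cells are blue, mutant cells red, squares, circles and triangles are replicates 1, 2 and 3, and lines are means. In LTBP4 (14246 to 20151 against 4424 to 9373) and in BHLHE40 (8346 to 18720 against 2794 to 4029) the samples numbered 1 are the closest between the lines.

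The calls among the members depended on which samples were included. Without wild-type 1, 4 of the 8 members passed, against 7189 of 14498 genes, and without mutant 1 also 4, against 8285 of 14570 genes. Without replicate 1 of both lines 7 passed, all but SMAD4, of which 5 were higher and 2 lower, at a background of 82.3% of all genes. Against the median of 0.39 in that fit, TGFBR1, SMAD7 and SKIL lay clearly above genes in general, TGFBR2 by less, and SMAD2 and SMAD3 below them. Leaving out any 1 of wild-type 2, wild-type 3, mutant 2 or mutant 3 left 0 to 23 of all genes past the threshold in limma. Among these were 0 members, with 3 members at an unadjusted p under 0.05 each time. In all these fits the log2 fold change of TGFBR1 stayed between 0.99 and 1.61, that of TGFBR2 between 0.62 and 0.98, and that of SMAD3 between -0.62 and -0.40.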

How the data were processed

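RNA was sequenced from 3 wild-type and 3 mutant samples of HCT116 cells. Ribosomal RNA had been removed with Ribo-Zero according to the extraction protocol, although the molecule field of the labels says polyA RNA. Per the submitters' processing notes and the paper's methods, reads were mapped to hg19 with TopHat2 2.1.0 (CASAVA 1.8.2 is also named), counted per gene with HTSeq, and DESeq was used for the comparison. The gene annotation and the strand setting are not given in the sources used here. The signal values deposited by the authors are gene counts divided by 1 size factor per sample. In each sample 100% of values were whole multiples of 1 step (tolerance 0.001), which was taken as 1 read. The mutant 2 column, whose name also stands in a note line of the table, holds the same kind of value. The authors' own log2 ratio and adjusted p columns were not used.

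Genes averaging 10 or more normalized counts were tested with limma 3.58.1 (eBayes with trend, R 4.3.3) on log2(value + 1), with Benjamini-Hochberg adjustment over all genes. Alternatives were edgeR 4.0.16 (quasi-likelihood, TMM factors) and DESeq2 1.42.0 on the recovered reads, limma on values rescaled by TMM factors, other pseudocounts (0.5 and 8), no filter or a mean of 50, a replicate block, and the removal of each library or of replicate 1 of both lines. The limma and edgeR scripts were tested on simulated data. The members and lists were chosen with earlier results of these data known. All members were named, with up to 4 called genes of smallest p per list, or every called gene where 5 or fewer were called, and for likeness 3 genes per called member, 1 of which is not reported here. Of the symbols, 94.1% received a GENCODE 44 position on GRCh37, 1482 of them through a RefSeq synonym. Promoters are from RefSeq (GRCh38.p14). Tables and figures were made with Python 3.11.15, pandas 2.3.3, numpy 2.4.6 and matplotlib 3.10.9. Counting floors cover counting error only.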

Additional observations from a re-analysis of the deposited data

How the results depend on the processing

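Over all genes 3976 passed in limma, against 3408 in edgeR and 6153 in DESeq2. Leaving out 1 library gave 0 to 8285 calls over all genes, 0 to 4 among the members and 0 to 46 among the other pathway genes (4157 to 4333 genes at an unadjusted p under 0.05 without wild-type 2, wild-type 3, mutant 2 or mutant 3). The gains came without wild-type 1 (46 of 80 pathway genes, against 7189 of 14498 of all genes) or mutant 1 (41 of 80, against 8285 of 14570). The losses, to 0 calls among members and pathway genes, came without any of the other 4. Without replicate 1 of both lines 11962 genes, 7 members and 62 pathway genes passed, with a median log2 fold change of 0.39 over all genes. With only 3 samples a line, a call near the threshold therefore depends on each library, and why the samples numbered 1 depart was not tested.

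TGFB1 turned from 0.19 to -0.043 in edgeR, to -0.050 in DESeq2 and to -0.040 with TMM factors in limma. SMAD4 turned from 0.04 to -0.16 in edgeR, to -0.17 in DESeq2, to -0.19 with TMM factors in limma and to -0.092 without replicate 1 of both lines, and lay between -0.13 and 0.14 when 1 library was left out. In these 3 fits the median of all genes was 0.0057 to 0.013. The call of TGFBR2 was lost under each of them, that of DAB2 likewise, and that of CREBBP in edgeR and with TMM factors. The other pathway genes named by the rule kept their calls in edgeR, in DESeq2 and with TMM factors, whereas TRIM33, FKBP1A and NEDD9, outside the rule, lost theirs in edgeR (adjusted p = 0.0531, 0.05002 and 0.0647) and kept them in DESeq2. CREBBP and DAB2 also lost their calls when genes of any level were tested (adjusted p = 0.0519 and 0.0542, limma). The pseudocounts changed no call of a member or of a gene named by the rule, nor did the filter at a mean of 50, which removed INHBC and PTHLH. With a pseudocount of 8 the list for latency and activation had 2 higher calls in place of 1, and all genes had 2641 in place of 2517.

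With a replicate block 0 genes passed in limma and 0 in edgeR, among all genes (4305 and 4115 at an unadjusted p under 0.05), among the members and among the other pathway genes. TGFB1 was at -0.040 and SMAD4 at -0.19 in edgeR with the replicate block. The deviations of same-numbered samples from their line means correlated at -0.53, -0.43 and -0.31. Deviations within a line sum to 0 and the samples numbered 1 depart most, so these correlations cannot decide whether the numbers pair the samples. In limma the block left the log2 fold changes as they were (1.24 for TGFBR1 and -0.55 for SMAD3) and removed the calls.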
